A study of Mus musculus with 17 samples.

Results

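The mitochondrial ribosome is built from proteins that are encoded in the nucleus, and the genes of these proteins were followed across laser-captured mouse dentate gyrus with and without FOXO transcription factors. A gene was taken as a member when a probe set of the array carried its symbol alone and that symbol began with Mrpl or Mrps and a number. This gave 76 genes of 18193 with a probe set of their own, 47 named for the large subunit (Mrpl) and 29 for the small subunit (Mrps). They are read by 156 probe sets, 34 genes by 1 and 42 by several, and for each gene the probe set with the brightest mean over the 15 unmarked arrays was used. Mrpl30 and Mrpl53 share their probe sets with other symbols and were not included.

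The KO animals (8 samples, FOXO TKO in the titles) lacked Foxo1, Foxo3 and Foxo4 after recombination of floxed alleles by an hGFAP-cre transgene, which acts in the common progenitors of neurons and glia, so both kinds of cell carry the deletion. The 7 WT samples are labelled by genotype only, and neither their alleles nor an age or sex of any of these animals is given, while the colony as a whole mixed the FVB and B6 strains. The tissue label is brain, and it is the methods that name the dentate gyrus. A further KO and a further WT array, of the marks 433 and 437, bear the mark CA13, whose meaning no source states, and were kept out of both groups. The titles also carry 1 of 2 numbers that divide the unmarked arrays into a larger series of 11 (6 KO, 5 WT) and a smaller series of 4 (KO 390 and 391, WT 392 and 393). No source used here says what these numbers stand for, so the series cannot be told apart from the animals in it.

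Mitochondrial ribosomes translate the few messenger RNAs of the mitochondrial genome, all of which encode core subunits of the respiratory chain and ATP synthase. Their small subunit reads the messenger RNA and their large subunit joins amino acids and releases the chain next to the inner membrane. Many of the proteins descend from those of bacterial ribosomes and others exist in mitochondria alone. Neurons depend on respiration, and defects of several of these proteins cause inherited disease of brain or heart. FOXO factors regulate metabolic and stress genes, and the arrays were made to ask which processes change in neurons without them.

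Gene levels are given as log2(signal + 32) after quantile normalization, so that a difference of 1 is 2-fold and changes of dim probe sets are understated. limma with Benjamini-Hochberg adjustment over 45037 probe sets gave the tests, and a gene was called at an adjusted p under 0.05. Levels are compared only within a probe set, since probes differ in brightness. The loss of Foxo1 was seen in every KO sample: its brightest probe set had a level of 12.33 to 13.94 over WT arrays (median 13.26), and 7.33 to 9.44 over KO arrays (median 7.94), a log2 fold change of -5.08 (adjusted p = 1.16e-07, limma). In 14 of the unmarked arrays the mean level of 12 granule neuron markers was 10.92 to 11.33, but in the library labelled KO 433 it was 7.86, and 14 CA pyramidal markers there had a mean of 10.89 against 8.31 to 9.01 in the other 14. The CA13-marked array of mark 433 had the granule profile instead (11.15 and 8.50), so the library labelled KO 433 goes against its label and results that rest on it are also given without it. Across the unmarked arrays the Gapdh 3' over 5' log2 ratio, a measure of RNA quality, was 5.04 to 6.41.

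Most of the members had bright probe sets. Their mean signals ran from 46.8 to 22310 with a median of 874, and 57 of 76 had a mean of at least 500, while 3 were under 100. No member was removed by a filter. The spread between WT arrays was that of genes at large, with a median SD of 0.38 for the members and 0.38 for all genes. In KO it was 0.32 for the members and 0.36 for all genes. Among genes with a mean signal of at least 500 it was 0.34 in WT and 0.33 in KO, and for the 57 members that bright 0.36 and 0.29. The 3 members with the largest SD in WT were Mrpl12, part of the flexible stalk of the large subunit that contacts translation factors (1.25), Mrps34, a small-subunit protein without a bacterial counterpart (0.94), and Mrpl2, a conserved RNA-binding protein near the catalytic centre (0.85). For Mrpl12, the WT levels were 6.60, 6.80, 7.05, 7.25, 8.36, 8.73 and 9.999. The highest of these was WT 392.

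None of the mitochondrial ribosomal protein genes passed the test between KO and WT dentate gyrus. limma called 0 of 76, and SAM and the methods' t-test with Benjamini-Hochberg adjustment also called 0. Of all 45037 probe sets limma called 6, or 0.0133%. At an unadjusted p under 0.05, 0 members were higher and 0 lower, where 1.53% of all genes were higher and 1.52% lower. In 0 members did the KO and WT arrays fail to overlap (0.022% of all genes). The log2 fold change was positive for 34 members and negative for 42, with a median of -0.02 against 0.01 for all genes. The median was -0.03 for the 47 Mrpl genes and 0.01 for the 29 Mrps genes. For 54 of 76 members the 95% interval lay within 1.5-fold in either direction, and for 74 within 2-fold. Changes smaller than these bounds may have gone undetected with this number of arrays. Of the 42 genes with several probe sets 22 had estimates of both signs. Without the library labelled KO 433 the median was -0.03, with 0 called and 0 at an unadjusted p under 0.05.

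**Figure D1:**
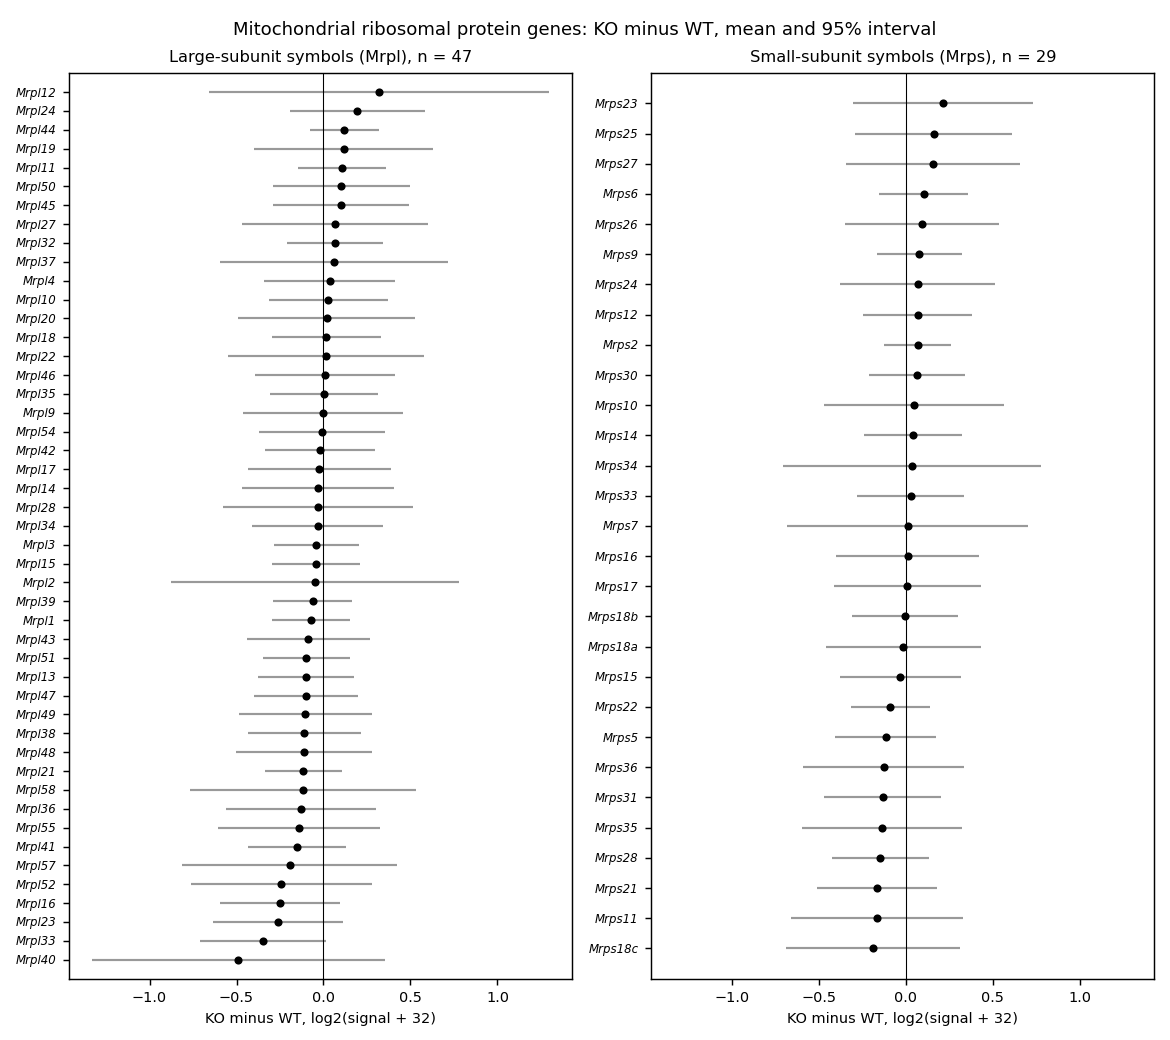
Difference between KO (n = 8) and WT (n = 7) for each of the 47 Mrpl and 29 Mrps genes, on the log2(signal + 32) scale. Points are limma estimates and lines their 95% intervals. Every interval crosses 0, and the estimates run from -0.49 (Mrpl40) to 0.32 (Mrpl12).

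The large-subunit gene with the smallest p was Mrpl33, which encodes a small protein with a bacterial counterpart. Its level was 9.76 to 10.69 over WT arrays (median 10.21), and 9.65 to 10.50 over KO arrays (median 9.79). The difference was -0.35 (standard error 0.17, unadjusted p = 0.06 from limma, exact permutation p = 0.068, two-sided). The groups overlapped, with 1 KO array, MS15, apart from the other 7 at 9.65 to 9.87. The other probe set of Mrpl33 gave a difference close to 0 (-0.0044).

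Mrpl16, whose product lies close to the site where transfer RNAs are bound, had levels of 10.83 to 11.22 over WT arrays (median 11.07), and 9.85 to 11.21 over KO arrays (median 10.92), a difference of -0.25 (standard error 0.16). The lowest KO value was that of the library labelled 433, and without it the difference was -0.11. Mrpl23, a protein of the exit of the peptide tunnel, was 10.34 to 11.64 over WT arrays (median 10.63), and 10.31 to 11.12 over KO arrays (median 10.46), a difference of -0.26 (standard error 0.18). Here the top of the WT range was WT 392, without which the difference was -0.12. With the array series as a block Mrpl23 was at an unadjusted p of 0.0486 and an adjusted p of 1.00 (limma).

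Mrpl40, a gene of the region that is deleted in the human 22q11 syndrome, had the lowest estimate of all members, -0.49, and a wide standard error of 0.40. Its WT levels were 7.91 to 9.81 (median 8.39) and its KO levels 5.997 to 9.26 (median 8.54), so that the KO median was above that of WT although the KO mean was below. The lowest value was KO 384, whose signal of 33.6 is close to the 32 that was added to every signal. Mrpl44, which carries a ribonuclease III-like fold, was 12.64 to 12.79 over WT arrays (median 12.75), and 12.63 to 13.09 over KO arrays (median 12.84). Its difference of 0.12 (standard error 0.09) had the smallest p among the members with a positive estimate, 0.218 (limma, unadjusted).

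The promoters of Mrpl40 and Mrpl44 are shown because they are the only 2 of 67 members with a RefSeq promoter window (GRCm38.p6, 250 bases before the start to 50 after, the first listed start) that hold the letters GTAAACA, a core recognized by FOXO proteins. The letters, searched on both strands, are in capitals. For Mrpl40 they begin at -156 from its start, beyond the start of Hira, which lies on the opposite strand 113 bases upstream.
Mrpl40 (chr16:18876744-18876823, minus strand): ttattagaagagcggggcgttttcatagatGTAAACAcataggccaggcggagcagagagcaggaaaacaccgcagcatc
Mrpl44 (chr1:79775779-79775858, plus strand): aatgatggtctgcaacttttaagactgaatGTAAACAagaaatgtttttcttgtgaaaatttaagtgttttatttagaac
The share of members with the letters was 2.99%, against 2.82% of 14452 probed genes. The estimates of the 2 genes have opposite signs, and neither was called. The 4 probe sets of Mrpl44 ran from -0.06 to 0.15, so its sign depends on the probe set.

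Among the other Mrpl genes of the smallest p, Mrpl41 (-0.15), whose product has also been reported to bind Bcl-2, and Mrpl21 (-0.12) had negative estimates. Mrpl24 (0.19), Mrpl11 (0.11) and Mrpl12 (0.32, standard error 0.46) had positive ones. For Mrpl11, the mean over its 4 probe sets was instead -0.02.

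The estimates of the Mrps genes ran from -0.19 (Mrps18c) to 0.21 (Mrps23). Mrps28 was 9.62 to 10.41 over WT arrays (median 10.17), and 9.78 to 10.28 over KO arrays (median 9.96), a difference of -0.15 (standard error 0.13). Mrps21 had a difference of -0.17 (standard error 0.16). Mrps23 was 9.54 to 10.91 over WT arrays (median 10.12), and 9.45 to 11.09 over KO arrays (median 10.68), and the estimates of Mrps6, Mrps25 and Mrps2 were 0.10, 0.16 and 0.07. The lowest WT array of Mrps25, 206 at 7.67, set the sign of its estimate, which was -0.03 without it.

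Mammals have 3 proteins related to bacterial S18, of which that of Mrps18a sits in the large subunit and those of Mrps18b and Mrps18c in the small one. Their differences were -0.01 (Mrps18a), 0.00 (Mrps18b, 95% interval -0.31 to 0.30) and -0.19 (Mrps18c, 95% interval -0.69 to 0.31). Mrps18b was the steadiest of the 3, at 8.48 to 8.89 in WT and 8.13 to 9.15 in KO. Mrps18c had 1 low array in each group, KO 433 at 9.82 and WT 392 at 9.97, while the other 13 lay between 10.96 and 11.57. Without KO 433 its difference was -0.03.

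The partners of the mitochondrial ribosome gave 0 calls as well. Of 19 measured factors of mitochondrial translation 1 was lower at an unadjusted p under 0.05 and 0 higher. This was Gatb, a subunit of the enzyme that makes glutamine-charged transfer RNA in mitochondria, at 9.36 to 10.12 over WT arrays (median 9.76), and 8.88 to 9.63 over KO arrays (median 9.36). The difference was -0.38 (standard error 0.14, unadjusted p = 0.0122, adjusted p = 1.00, limma, exact permutation p = 0.00482). Tsfm, an elongation factor, had a difference of 0.41 (standard error 0.25) and Gtpbp3, which modifies transfer RNA, 0.17.

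Of 18 aminoacyl-tRNA synthetases of mitochondria, 31 genes of ribosome assembly and rRNA maturation and 19 of mitochondrial DNA maintenance and transcription, 0 passed even unadjusted. The genes of smallest p were Iars2 (-0.23), Rars2 (0.20) and Aars2 (-0.21) among the synthetases. For assembly they were Mrm1 (0.37), Mterf3 (-0.30) and Nsun4 (0.20), and for transcription Gabpb1 (0.44), Ppargc1b (0.34) and Mterf1a (0.24). The medians of the lists were between -0.07 (assembly) and 0.05 (transcription). The 1 mitochondrially encoded gene with a probe set of its own, ND5, differed by -0.05.

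The proteins of the cytosolic ribosome also gave 0 calls between KO and WT. Of 42 cytosolic ribosomal protein genes, 38 had a negative estimate, with a median of -0.15, where 42 of 76 mitochondrial members were negative. Of 73 nuclear genes of the respiratory chain and ATP synthase 35 were negative, with a median of 0.00. These are descriptions, and no test was made of the lists against each other. The cytosolic median rests in part on 2 arrays: it was -0.09 without KO 433 (35 of 42 negative), -0.08 without WT 392 (31 negative) and -0.03 without both (26 negative), where all genes had a median of 0.02 and the mitochondrial members 0.02.

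The members differed between the 2 array series, a comparison that was added after the data had been seen. With genotype as a further term, limma called 21 of 76 members, 19 higher and 2 lower in the smaller series. Of all genes, 6.35% were called higher and 4.29% lower. Among genes with a mean signal of at least 500 the shares were 11.2% and 10.1%, and of the 57 members that bright 16 were called higher and 1 lower. The estimate was positive for 59 of 76 members, with a median of 0.31, against 58.0% of all genes and a median of 0.07. Mrpl (12 higher, 1 lower of 47) and Mrps genes (7 higher, 1 lower of 29) both took part. The calls rest in part on WT 392: without it 5 members were called higher and 0 lower, with a median of 0.23, and the shares of all genes fell as well, to 1.72% higher and 1.65% lower. Without KO 390, 9 were called higher and 0 lower, beside 2.23% and 1.67% of all genes. Leaving out the library labelled KO 433 gave 25 higher and 2 lower, beside 8.28% and 5.46% of all genes.

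**Figure D2:**
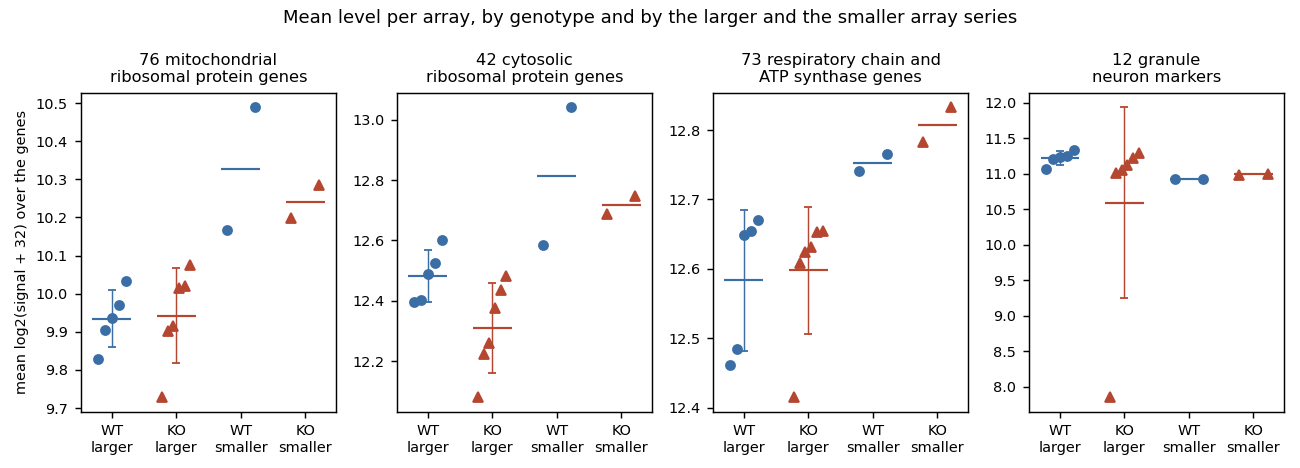
Mean log2(signal + 32) on each unmarked array over the 76 mitochondrial ribosomal protein genes and over 3 other lists, with WT as circles and KO as triangles, split by array series. Horizontal lines are group means and bars are SD where a group has more than 2 arrays. The 4 arrays of the smaller series lie at 10.17 to 10.49 for the members, above all 11 of the larger series (9.73 to 10.07).

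Averaged over the 76 members, the smaller series had levels of 10.17 (WT 393), 10.20 (KO 391), 10.28 (KO 390) and 10.49 (WT 392). The 11 arrays of the larger series were at 9.73 to 10.07 (median 9.94), so the series did not overlap and each held KO and WT arrays. This was not particular to the members: the mean over all genes did not overlap either (8.33 to 8.36 against 8.24 to 8.31), nor did that over the respiratory chain genes (12.74 to 12.83 against 12.42 to 12.67). Within KO alone the median difference of the members was 0.30 and within WT alone 0.33. Of the members 0 were called within KO and 4 within WT, where fewer arrays were compared. The share of all genes called in these fits was not recorded, so the counts cannot be read as particular to the members. The interaction of genotype and series was called for 0 members, with a smallest adjusted p of 0.975 (limma). It was called for 0 of all 45037 probe sets too, so it says nothing about the members in particular.

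The largest difference was that of Mrpl2, with levels of 11.03 (KO 390), 10.74 (KO 391), 11.03 (WT 392) and 10.66 (WT 393) in the smaller series. The larger series was at 8.77 to 9.73 (median 9.14), with no overlap. Mrpl2 was 3.34-fold higher in the smaller series (log2 difference 1.74, standard error 0.16, adjusted p = 4.62e-05, limma), and it kept its call without WT 392 (1.68). Between KO and WT it differed by -0.05.

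Mrps7, a conserved protein of the head of the small subunit, was at 10.37 (KO 390), 9.89 (KO 391), 10.84 (WT 392) and 9.83 (WT 393), above all of the larger series at 8.50 to 9.46 (median 8.87). The difference was 1.32 (standard error 0.20, adjusted p = 0.00116, limma). Mrps17, a conserved protein that binds the rRNA of the small subunit, was at 10.65 to 11.01 against 9.74 to 10.36, again without overlap. Its difference was 0.75 (standard error 0.13, adjusted p = 0.00273, limma). Mrpl27, a conserved protein next to the catalytic centre, was at 10.98 to 11.32 against 9.64 to 10.69, a difference of 0.96 (adjusted p = 0.0029, limma). Its other probe set gave -0.30. These 3 genes, Mrpl2 and Mrpl23 were the 5 that were also called without WT 392.

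Mrpl58 encodes a peptidyl-tRNA hydrolase that frees stalled ribosomes and is itself part of the large subunit. It was at 10.65 to 11.73 in the smaller series and 9.02 to 10.55 in the larger, a difference of 1.09 (adjusted p = 0.0088, limma), with its other probe set at 0.59. Mrps34 was at 9.54 to 11.15 against 8.20 to 9.61, overlapping by 1 array, a difference of 1.22 (adjusted p = 0.0106, limma). Mrpl57 (1.05), Mrpl55 (0.73) and Mrps35 (0.67) did not overlap between the series, though the other probe set of Mrpl57 gave -0.03. In all, 9 of 76 members did not overlap, where 4.68% of all genes did not. Among genes with a mean signal of at least 500 it was 584 of 6181, and among the members that bright 6 of 57.

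The remaining members that were called higher differed by 0.43 (Mrpl41) to 1.00 (Mrpl37, a dim probe set with a mean signal of 46.8). They are Mrpl4, Mrpl17, Mrpl23, Mrpl28, Mrpl37, Mrpl41, Mrpl42, Mrps16, Mrps26 and Mrps36, the last of which is now known as a subunit of the oxoglutarate dehydrogenase complex. WT 392 was the highest of the 4 arrays in 16 of the 19 members called higher, and the highest of all 15 in 37 of 76 members, where it was the highest in 21.6% of all genes. Of the 9 called members with several probe sets, 4 had all of them on the same side. Mrpl17, Mrpl27, Mrpl57, Mrps23 and Mrps26 had estimates of both signs, the lowest being -0.30 for Mrpl17 and -0.18 for Mrps26.

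The 2 members that were called lower are of the large and of the small subunit. Mrpl45 helps to anchor the large subunit to the inner membrane at the tunnel exit. It was at 7.89 (KO 390), 7.75 (KO 391), 7.32 (WT 392) and 8.07 (WT 393), below all of the larger series at 8.13 to 8.66, a difference of -0.59 (adjusted p = 0.0231, limma). Mrps23, without a bacterial counterpart, was at 9.45 to 10.12 against 10.03 to 11.09, a difference of -0.80 (adjusted p = 0.019, limma). Its 3 probe sets ran from -0.80 to 0.05, and neither gene was called without WT 392.

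**Figure D3:**
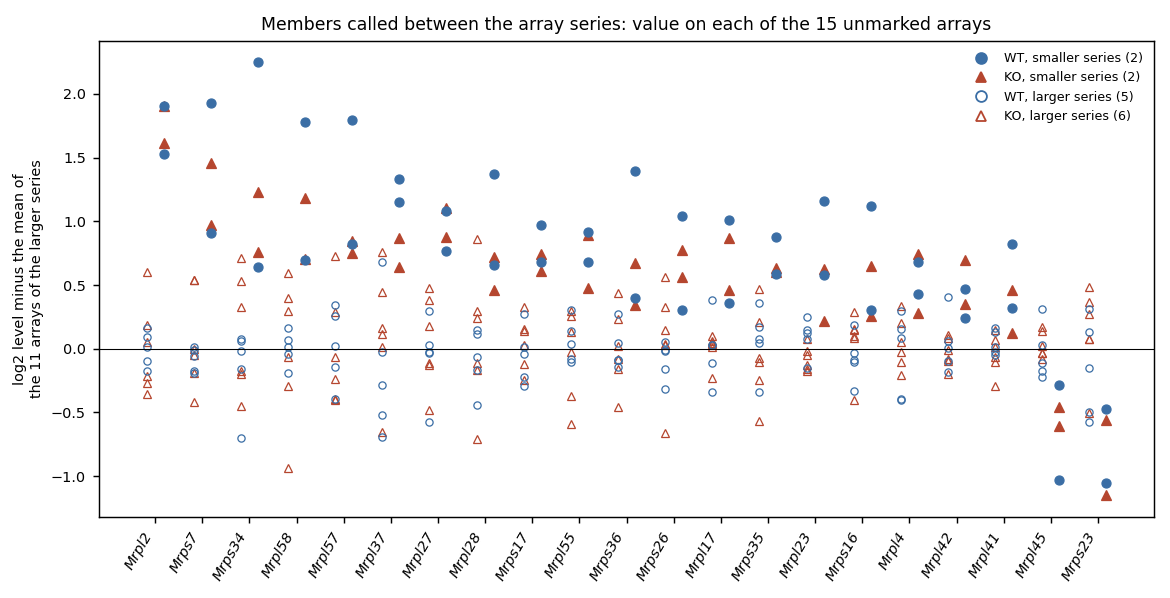
The 21 members called between the array series, shown as the level on each of the 15 unmarked arrays minus the mean of the 11 arrays of the larger series (log2). Filled symbols are the smaller series and open symbols the larger one. WT 392 is the topmost filled circle in most genes called higher, and the filled symbols of Mrpl2 and Mrps7 lie apart from the open ones.

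Other lists moved between the series too. Of 42 cytosolic ribosomal protein genes 11 were called higher and 0 lower, with a median of 0.30, and of 73 respiratory chain genes 13 higher and 1 lower, with a median of 0.18. Of the 19 factors of mitochondrial translation 0 were called higher and 1 lower (median 0.17). Of the 18 synthetases 4 were higher and 1 lower (median 0.24), and of the 31 assembly genes 1 was higher and 2 lower (median 0.11). The genes of mitochondrial DNA maintenance had a median of -0.02.

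The granule marker mean was 10.92 to 11.001 in the 4 arrays of the smaller series and 11.01 to 11.33 in the larger, the library labelled KO 433 left aside. For CA pyramidal markers it was 8.56 to 9.01 against 8.31 to 8.78, and for oligodendrocyte markers 10.55 to 10.83 against 9.49 to 11.21. The limma fit between the series, unlike these means, included the library labelled KO 433 in the larger series. In that fit 1 of the 12 granule markers was called lower, and of the 14 pyramidal and 6 oligodendrocyte markers 0 were called. Of 7 astrocyte markers 2 were called higher and 2 lower, with a median of 0.42, and of 7 microglia markers 1 was called higher. For 8 interneuron and 5 endothelial markers the same fit called 0. There 9 of the 12 granule markers had a positive estimate (median 0.14), against the direction of the means without that library. These counts therefore cannot show whether the markers differed between the series. The Gapdh ratio was 5.11 to 5.37 in the smaller series and 5.04 to 6.41 in the larger. With the ratio as a covariate 11 members were called higher and 1 lower, beside 2.22% and 1.5% of all genes. The part of cell makeup in the series difference was not tested, and in captured tissue fewer cells of a type and less RNA per cell cannot be told apart.

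The array with the CA pyramidal profile from WT gave 0 calls among the members. The CA13-marked WT array of mark 437, with a granule marker mean of 7.73 and a pyramidal mean of 10.85, was set against 14 unmarked arrays, KO 433 left out, with the lone array assumed to vary as the others do. Of all genes 1.2% were called higher and 1.37% lower, and limma called 0 of 76 members. At an unadjusted p under 0.05, 5 members were higher and 3 lower (6.46% and 6.05% of all genes). The median difference was 0.04, and for cytosolic ribosomal proteins it was -0.34 with 1 of 42 called lower. With all 17 arrays as labelled limma called 0 probe sets of any gene. At an unadjusted p under 0.05 were then 2 members higher and 2 lower, beside 3.07% and 4.14% of all genes.

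Mrpl16 had the smallest p of this comparison, with a level of 10.40 on the CA13-marked array and 10.82 to 11.21 on the 14 (difference -0.67, standard error 0.20, adjusted p = 0.126, limma). The library labelled KO 433, which also has the pyramidal profile, was lower still at 9.85. The CA13-marked array of mark 433, however, was at 9.81 and has the granule profile. Both arrays of mark 433 were therefore below all others, whatever their profile.

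Mrpl35 (10.45 against 9.17 to 10.05), Mrps6 (13.24 against 12.12 to 12.88), Mrpl21 (10.15 against 9.31 to 9.70) and Mrps24 (11.80 against 10.18 to 11.59) lay above the 14 arrays, with differences of 0.71, 0.65, 0.52 and 0.96 and adjusted p from 0.277 to 0.406 (limma). In the library labelled KO 433 they were at 10.29, 12.95, 9.30 and 11.45, so that Mrpl35 and Mrps6 were above the 14 there, Mrps24 within them and Mrpl21 below. The array of mark 433 with the granule profile was above the 14 for Mrpl35 too, at 10.19. Mrps33 was at 11.09 on the CA13-marked array of mark 437 and at 11.11 in the library labelled KO 433, above the 14 at 10.01 to 10.86. Mrps26 was low in both, at 12.01 and 12.11 against 12.45 to 13.82, and so was Mrpl3, at 12.67 and 12.56 against 12.91 to 13.43. For Mrps33 and Mrps26 the array of mark 433 with the granule profile lay within the range of the 14, whereas for Mrpl3 it was below them at 12.84. None of these genes was called. Mrpl38 (-0.43) and Mrpl1 (-0.28) had the next smallest p among negative estimates.

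Within a mark the 2 arrays can be set against each other without a test. For mark 437 the array with the pyramidal profile minus that with the granule profile had a median of 0.10 over the members, 42 of 76 positive. For mark 433 it was 0.00, 39 positive. Higher in both were 28 members (36.8%, against 33.7% of all genes) and lower in both 23 (30.3%, against 30.3%), and all genes had medians of 0.02 and 0.01. Cytosolic ribosomal proteins were at -0.43 and -0.47, with 35 of 42 lower in both. Members beyond 0.5 in the same direction in both marks were Mrps26 (-0.75 and -0.89), Mrps33 (0.54 and 0.95), Mrpl52 (0.59 and 0.61), Mrps23 (0.70 and 1.21) and Mrps10 (0.95 and 1.00), of which Mrpl52 and Mrps10 were named after their values had been seen. The share of all genes beyond 0.5 was not recorded, so how unusual such members are is not known. On the CA13-marked array of mark 437, Mrps10 was at 8.31, Mrps23 at 10.72 and Mrpl52 at 12.44. These lay within the 14 unmarked arrays (7.05 to 8.83, 9.45 to 10.96 and 11.37 to 13.32). In mark 433, Mrps10 was at 7.54 in the library labelled KO 433 and at 6.54, below the 14, on the other array.

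**Figure D4:**
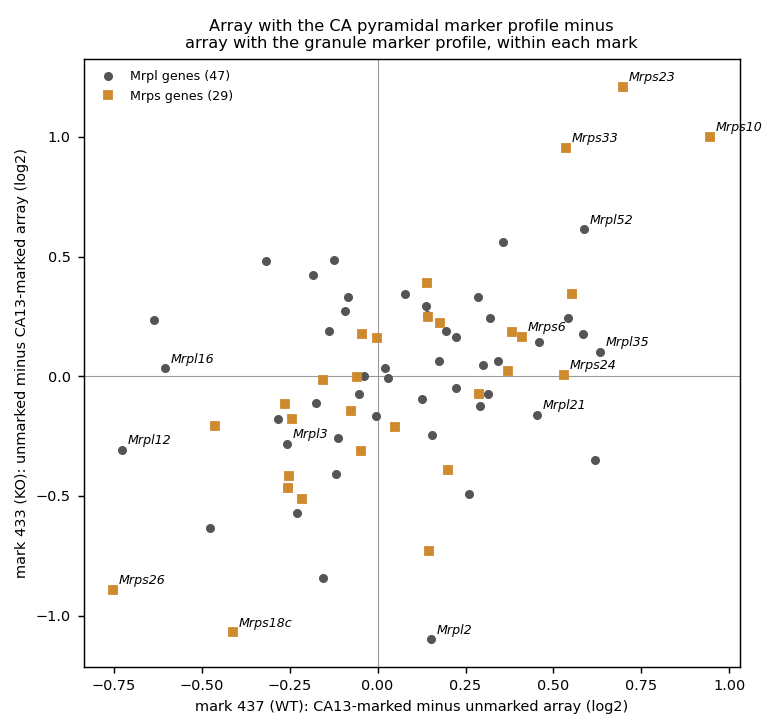
Difference between the array with the CA pyramidal marker profile and that with the granule profile, for mark 437 (WT, horizontal) and mark 433 (KO, vertical), in log2 units, with 1 point per member. The points lie around 0 on both axes (medians 0.10 and 0.00). Differences beyond 0.5 in the same direction in both marks were those of Mrps33, Mrps23, Mrpl52 and Mrps10 (positive) and Mrps26 (negative).

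The rule used symbols alone, and the promoters of the members are described here beside those of all probed genes. Of the 67 members with a RefSeq promoter window 24 (35.8%) hold CCGGAAG, a core of the sites of ETS factors such as GABP, against 13.8% of 14452 probed genes, on either strand. AAGATGGCG, a YY1 core, was in 8 (11.9%, against 2.33%), and GCATGCGC, the core of the NRF-1 site, in 8 (11.9%, against 4.27%). The TATA box letters TATAAA were in 5.97% of the members and 9.87% of the genes, CCAAT in 38.8% and 38.2%, and CACGTG in 7.46% and 9.02%. These motifs do not contain one another, although GCATGCGC can match on both strands of overlapping bases. For 22 of the 67 the first listed start lies inside the span of the RefSeq gene, which then has a start farther upstream.

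The promoter of Mrps26, a member called between the array series, is shown for the ETS core, which lies there on the opposite strand, and that of Mrpl32, a large-subunit protein with a bacterial counterpart, for the NRF-1 core, which occurs at 2 places. Both windows end at the base before the RefSeq gene, and capitals mark the matches. The ETS core of Mrps26 begins at -14 from its start. Within that core lies the start of 4930473A02Rik, on the opposite strand 8 bases upstream.
Mrps26 (chr2:130563677-130563756, plus strand): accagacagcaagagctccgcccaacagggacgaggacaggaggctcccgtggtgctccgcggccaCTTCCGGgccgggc
Mrpl32 (chr13:14613038-14613117, minus strand): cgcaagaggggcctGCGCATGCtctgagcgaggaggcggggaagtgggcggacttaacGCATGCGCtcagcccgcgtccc
Mrps26 was at 12.45 to 13.81 over WT arrays and 12.11 to 13.54 over KO arrays, a difference of 0.09 (95% interval -0.35 to 0.54). Its difference between the array series was 0.68, with its other probe set at -0.18. Mrpl32 was at 9.35 to 10.06 over WT arrays and 9.63 to 9.97 over KO arrays, differing by 0.07 between genotypes (95% interval -0.21 to 0.34) and by -0.11 between the series.

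A start of another gene on the opposite strand lay upstream within 1000 bases for 24 of the 67 members (35.8%), against 14.2% of the probed genes. Mrpl46 and Mrps11, a large-subunit and a small-subunit gene, face each other this way at a distance of 42 bases. Their differences between KO and WT were 0.01 and -0.17, and between the array series Mrpl46 differed by 0.54 (adjusted p = 0.0537, limma). Mrps12 is paired with Sars2, a mitochondrial synthetase, at 147 bases, and Mrpl47 with Ndufb5, a subunit of respiratory complex I, at 308 bases. Mrpl2, the member that differed most between the series, is paired with Klc4 at 141 bases.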

How the data were processed

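RNA of laser-captured dentate gyrus had been extracted, labelled with biotin and hybridised to Affymetrix mouse arrays. The authors deposited linear signal intensities of 45101 probe sets for 17 arrays. The submitters' processing notes name MAS5, whereas the methods name RMA with SAM. RMA could not be repeated from summarised values, and SAM was run as an alternative. After removal of 64 control probe sets, log2(signal + 32) was taken and the 15 unmarked arrays were quantile normalized (all 17 for the CA13-marked arrays). limma 3.58.1 in R 4.3.3 was fitted over 45037 probe sets with genotype as the only term, eBayes with an intensity trend and Benjamini-Hochberg adjustment, and the steps were tested on simulated data. Exact permutation tests were two-sided over all 6435 splits, with 0.00016 as the smallest p. Replicates are single arrays whose marks are read as animals, so p-values measure the spread between arrays, whose number limits the precision.

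Gene names came from the platform annotation, where 34945 probe sets carry 1 symbol, 932 several and 9160 none. All 76 members were matched to RefSeq genes, and 67 to a promoter of GRCm38.p6. No source used here names a genome build for the probes. The named members are any that were called in a planned comparison, the 8 per direction of smallest p between KO and WT, the 5 per direction for the CA13-marked array, the 3 of largest WT SD, the Mrps18 family and up to 3 genes of each other list, and the comparison of array series names every member it called. The members and lists were chosen with earlier results of these data known. The array series was compared after the data had been seen. Alternatives were other scalings, pseudocounts of 1 and 128, a minimum mean signal of 50, the probe set rule, array series, RNA quality, array weights, a fit without the trend, SAM with 100 permutations at 5% false discoveries, the methods' t-test and leaving out each array.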

Additional observations from a re-analysis of the deposited data

Results flagged for a closer look

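Of 88 groups of arrays examined (7 WT or 8 KO arrays of each named member and of the members' mean), 10 held 1 array that stood apart from the rest by Dixon's gap-to-range ratio. Chance gives this in about 5% of groups when the groups are independent and not chosen by their values. Here the members were named in part from these same values and the groups share arrays, so 5% is not the level to set beside the 10. The library labelled KO 433 was the lowest of KO for Mrpl16 (9.85, nearest 10.84), Mrpl3 (12.56, nearest 13.06) and Mrps18c (9.82, nearest 10.96), and the highest for Mrps33 (11.11, nearest 10.65). WT 392 was the highest of WT for Mrpl41 (15.06, nearest 14.55), Mrps18a (9.72, nearest 8.89) and Mrps36 (11.19, nearest 10.19), and the lowest for Mrps18c (9.97, nearest 11.08). KO MS15 was the highest of KO for Mrpl33 (10.50, nearest 9.87), and WT 206 the lowest of WT for Mrps25 (7.67, nearest 8.62). All values are log2(signal + 32). The cause was not tested.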

How the results depend on the processing

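Between KO and WT 0 members were called under every alternative tried, and 0 without any 1 array. At an unadjusted p under 0.05 the count of 0 became 1 with median scaling, with the array series as a block and with array weights, and it was 0 to 1 when 1 array was left out, 1 being reached without KO MS15, WT 206, WT 385 or WT 393. The median of the members ran from -0.07 to 0.04 when 1 array was left out. Over all probe sets the 6 calls became 9 by SAM, 3 within the larger array series or without WT 437, and 0 within the smaller series. Of 464 recomputed fold changes of the 16 members named for their small p between KO and WT 458 kept their sign. Of 348 of the other 12 named members 70 changed sign, among them Mrpl2 (-0.05, and 0.19 without WT 392) and Mrps18a (-0.01, and 0.13 without WT 392). Within the smaller array series alone Mrpl11 was at -0.13, Mrps23 at -0.092, Mrps6 at -0.21 and Mrpl12 at -0.48. Mrps25 was at -0.026 to 0.25 when 1 array was left out, the lowest being that without WT 206, and Mrpl11 was at -0.018 as the mean of its probe sets. The CA13-marked array of mark 437 gave 0 called members under every alternative tried.

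Between the array series, 11 members were called higher and 1 lower with RNA quality as a covariate (2.22% and 1.5% of all genes). Leaving out 1 array gave 5 to 25 called higher and 0 to 2 lower, with a median of 0.23 to 0.38. The lowest counts were those without WT 392 (5 and 0) and without KO 390 (9 and 0), and 1 member was called lower without KO 391. The 25 called higher were reached without the library labelled KO 433. The cause was not tested. No paired analysis was possible because KO and WT share no replicate numbers. The 2 KO and 2 WT arrays of the smaller series limit that comparison, and without scanner files the signal over background of a probe set is not known here.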
